A study of Mus musculus with 232 samples.

Results

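The cells described here are the radial glia-like cells of the juvenile and adult mouse dentate gyrus, the cluster that the study's authors named RGL. Members were taken by the deposited cluster name, exactly RGL, which leaves out the separate perinatal cluster RGL_young. There were 199 such cells of 24185 in all: 3 at P18, 23 at P19, 32 at P23, 115 at P120 and 26 at P132. None of the 2285, 4779 and 4435 cells at E16.5, P0 and P5 had the name. In the usual reading of the names, nIPC are neuronal intermediate progenitors, OPC oligodendrocyte precursors, MOL mature oligodendrocytes and GC granule cells.

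The dentate gyrus is one of the regions of the mammalian brain that goes on making neurons after birth. Its stem cells are radial glia-like cells, which share much of their expressed genome with astrocytes, are mostly quiescent, and when active give rise to intermediate progenitors, neuroblasts and then granule neurons. Notch signalling, in which ligands such as Jag1 activate receptors on a neighbouring cell and the nuclear partner RBPJ turns on Hes genes, holds these cells in an undivided state. BMP signalling acts in the same direction through the Id proteins, which block proneural factors.

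The dentate gyrus was microdissected, dissociated with papain and captured as single cells on the 10X Chromium system, whose kit counts the 3' ends of transcripts as unique molecular identifiers (UMIs). At the juvenile ages, CD-1 males gave P18 and P23, and C57Bl/6 females gave P19. P120 was a pool of 2 male and 1 female, and P132 a pool of 3 males and 1 female, of hGFAP-GFP mice. In that line GFP is made under the promoter of human GFAP, a gene of astrocytes and radial glia, and per the labels the GFP-positive cells were sorted. RGL_young was used at E16.5, P0 and P5 (107, 325 and 241 cells), all from CD-1 mice of unknown sex; its 5 cells at P18, 7 at P23 and 1 at P132 stayed out of that comparison. Juvenile (P18 to P23) and adult (P120, P132) stages therefore differ in mouse line and sorting as well as in age, and these cannot be told apart. Each age is 1 pool of animals, and the age is the unit of replication.

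The adult ages did not resemble each other in makeup. RGL cells were 8.44% of the P120 cells (exact 95% interval 7.02 to 10.0) and 0.679% at P132 (0.444 to 0.993), where the libraries gave 0.735% and 0.623%. Granule cells were 50 of 1363 cells at P120 and 2250 of 3829 at P132. The RGL shares at the unsorted ages were 0.111% at P18 (0.0228 to 0.323), 1.11% at P19 (0.702 to 1.65) and 1.18% at P23 (0.812 to 1.67). Among RGL cells and astrocytes together, RGL made up 7.28%, 7.19%, 25.7% and 3.11% at P19, P23, P120 and P132. Shares were not tested between stages because of the sort. The labels give the sort for the mouse line and not for each library, and with most of its cells granule cells P132 does not look like P120; whether the sort worked alike in both was not tested.

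Summed over cells, RGL held 40304, 94319, 246172 and 41907 UMIs at P19, P23, P120 and P132, and 4675 at P18. A limit of 3 UMIs in those sums of the 4 larger ages corresponds to 74.4, 31.8, 12.2 and 71.6 CPM (UMIs of a gene per 1e+06 UMIs of the sum), the level below which an absent gene cannot be told from a weak one; it covers counting error only. Levels are CPM of the summed cells, and wherever 4 values stand in a row they are P19, P23, P120 and P132 in that order. P18, with 3 cells, is left out of them. "Astrocytes" means the clusters Immature-Astro, Astro-juv and Astro-adult added together. Since the kit reads transcript ends, levels are compared between cells and not between genes.

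The promoters of the Notch target Hes5 and of 2 genes that mark the cluster are shown because these genes are described below. Each is the 250 bases upstream of the annotated start, from RefSeq on GRCm38.p6, written 5′ to 3′ on the gene's strand, with capitals marking the core TGGGAA of the RBPJ motif or its reverse complement TTCCCA. The windows are chr4:154960673-154960922 on the forward strand (Hes5), chr5:77115124-77115373 on the reverse strand (Hopx, 1 of 2 windows listed) and chr7:79617658-79617907 on the reverse strand (Rhcg).
Hes5: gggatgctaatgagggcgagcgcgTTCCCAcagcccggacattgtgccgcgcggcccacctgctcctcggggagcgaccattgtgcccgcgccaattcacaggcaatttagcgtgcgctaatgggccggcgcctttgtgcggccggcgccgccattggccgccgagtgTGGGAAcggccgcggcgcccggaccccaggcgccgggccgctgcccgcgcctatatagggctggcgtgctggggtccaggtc
Hopx: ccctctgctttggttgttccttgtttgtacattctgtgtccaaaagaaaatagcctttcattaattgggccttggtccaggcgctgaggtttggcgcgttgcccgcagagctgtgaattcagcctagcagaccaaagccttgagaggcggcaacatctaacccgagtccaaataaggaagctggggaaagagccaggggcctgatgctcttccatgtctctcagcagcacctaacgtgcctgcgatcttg
Rhcg: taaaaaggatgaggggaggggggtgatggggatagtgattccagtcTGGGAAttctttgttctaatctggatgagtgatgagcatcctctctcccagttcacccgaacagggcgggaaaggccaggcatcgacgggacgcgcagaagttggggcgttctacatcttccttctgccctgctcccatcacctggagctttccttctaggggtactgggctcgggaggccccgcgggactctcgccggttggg
The core occurs 2 times before Hes5, at -226 and -82 from the start, 1 time before Rhcg, at -204, and 0 times before Hopx. Of 32851 windows of this length, 7094 (21.6%) hold the core on either strand and 910 (2.77%) hold it 2 or more times. A match is only a run of letters, and none of these data measure RBPJ binding.

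Of the 5 markers given for the cluster, Hopx, Rhcg and Tfap2c were higher in RGL than in every other cluster of 20 or more cells at each of the 4 ages. Hopx, a small homeodomain protein without DNA binding of its own, is at chr5:77086988-77115121, reverse strand (positions are on GRCm38 and span the gene, introns included), and read 347, 944, 829 and 692 CPM in RGL against 66.9, 289, 403 and 209 in astrocytes. The log2 ratios of RGL to astrocytes, scaled by TMM and with a prior count of 2, were 1.99, 1.47, 0.95 and 1.51, and astrocytes held Hopx too, at a lower level. In nIPC it read 0, 0, 33.8 and 42.6 CPM.

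The ammonium transporter Rhcg (chr7:79593363-79617657, reverse strand) rested on 23 UMIs and read 149, 74.2, 28.4 and 71.6 CPM, against 4.67, 5.29, 3.29 and 1.37 in astrocytes. Tfap2c, a transcription factor of the AP-2 family (chr2:172549593-172558622, forward strand), read 273, 95.4, 65 and 167 CPM against 1.56, 1.99, 0 and 0 in astrocytes. At P23 nIPC read 116 CPM of Tfap2c from only 12 cells, more than RGL; that cluster was too small to be ranked there. Over the 4 ages nIPC read 104, 116, 19.3 and 42.6.

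The other markers were weaker guides. Vnn1, the pantetheinase vanin (chr10:23894688-23905343, forward strand), had 7 UMIs in all, 49.6, 53, 0 and 0 CPM, and none in either adult age, where the limits of a 0 count are 12.2 and 71.6 CPM. The lysophosphatidic acid receptor Lpar1 (chr4:58435255-58553898, reverse strand) read 74.4, 63.6, 102 and 71.6 CPM in RGL, 1.56, 2.65, 4.93 and 2.74 in astrocytes and 11.6, 0, 9.65 and 0 in nIPC, but MOL was higher at every age, at 466, 601, 651 and 340.1 CPM. Lpar1 was thus higher in RGL than in astrocytes and not the highest in the tissue.

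**Figure D1:**
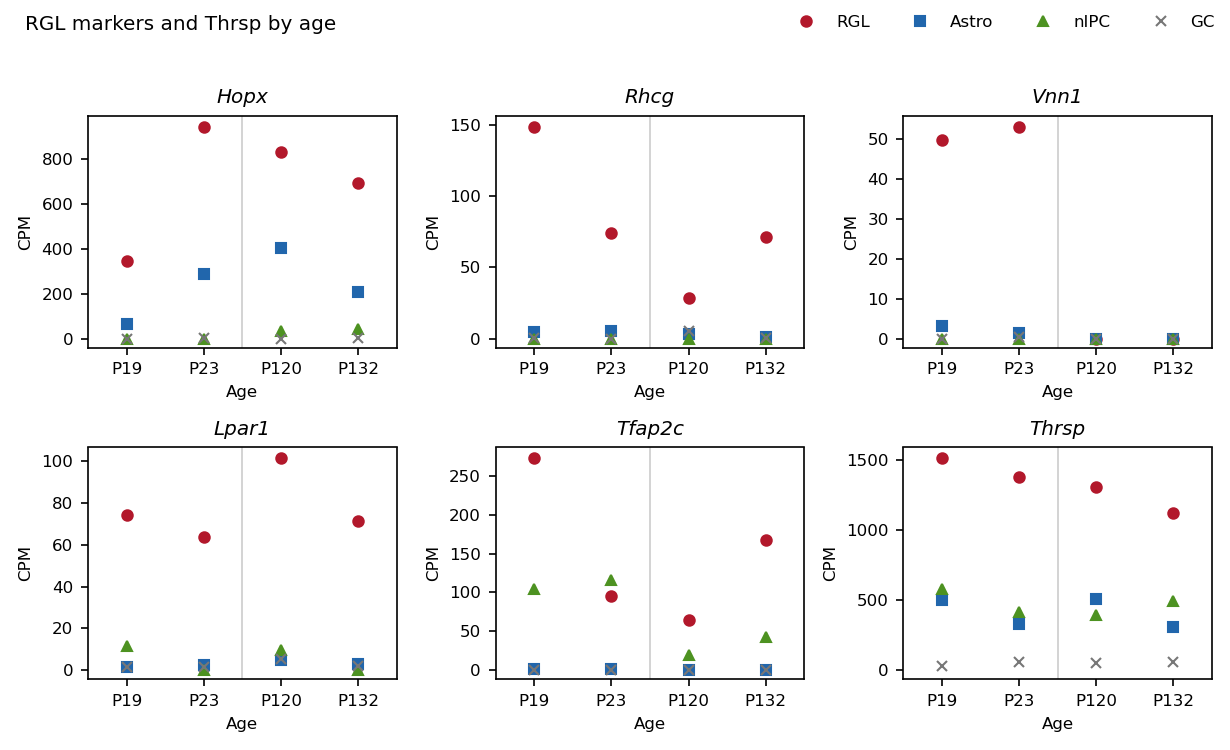
Levels (CPM of summed cells, linear axis from 0) of Hopx, Rhcg, Vnn1, Lpar1, Tfap2c and Thrsp at P19, P23, P120 and P132 in RGL, astrocytes, nIPC and granule cells; each point is 1 cluster at 1 age. RGL lies above astrocytes in every panel at every age except Vnn1 at P120 and P132, where both are at 0.

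Per cell, Hopx was found in 39.1, 90.6, 78.3 and 57.7% of RGL cells at full depth and in 26.1, 53.1, 53 and 46.2% once every cell was thinned to 1000 UMIs. In granule cells, taken as the background of free RNA, the full-depth shares were 0.202, 2.08, 0 and 0.4% (median 2867, 5680.5, 3555 and 1988 UMIs per cell, against 1605, 2875.5, 1923 and 1547 in RGL). The other markers were found in fewer cells: Rhcg in 17.4, 21.9, 6.09 and 11.5%, Lpar1 in 8.7, 18.8, 20 and 11.5%, Tfap2c in 39.1, 21.9, 11.3 and 26.9% and Vnn1 in 8.7, 15.6, 0 and 0%. Thinned, the shares were 13, 9.38, 3.48 and 7.69% for Rhcg, 8.7, 3.12, 11.3 and 3.85% for Lpar1 and 34.8, 9.38, 1.74 and 23.1% for Tfap2c, and Vnn1 was seen in 1 cell at P19 and 0 at P23. None of these 4 markers was in more than 2% of the granule cells of an age at full depth. Each was missing from most RGL cells of every age, and at this depth a missing UMI is not a missing transcript.

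A wider search asked which genes were highest in RGL among all clusters of 20 or more cells at all 4 ages (16, 15, 8 and 15 clusters). There were 29 such genes of the 3374 with a mean of 50 CPM or more in RGL (0.86%). Since the clusters were drawn on these genes, this is a description and carries no test. The 15 with the largest median ratio to the next cluster were Rhcg (8.83-fold), Proca1 (3.93), Cyp1b1 (3.62), Hopx (3.30), Tfap2c (3.02), Frzb (2.74), Thrsp (2.58), Notch2 (2.57), 1700019D03Rik (2.32), Pcx (2.29), Itih3 (2.24), Ctnnbip1 (2.01), Slc13a5 (2.01), 2810459M11Rik (1.95) and C030037D09Rik (1.65).

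Several of these are enzymes and transporters of metabolism. Thrsp, a protein that promotes fatty acid synthesis (chr7:97412938-97417730, reverse strand), stayed high at the 4 ages, at 1514, 1378, 1304 and 1122 CPM in RGL and 659.9, 333, 523 and 419.6 in the next cluster. Pyruvate carboxylase, Pcx, which feeds the citric acid cycle, read 174, 201, 134 and 119 CPM against 67.9, 63, 66.4 and 68.8 in the next cluster. The citrate transporter Slc13a5 read 99.2, 63.6, 36.6 and 71.6 CPM from 22 UMIs against 21.9, 45.5, 35.8 and 27.4. The P120 ratio of Slc13a5 was 1.02, so its lead there was small.

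Others act in signalling. Frzb, a secreted protein that binds Wnt ligands, read 248, 223, 126 and 262 CPM in RGL, 10.9, 19.9, 31.2 and 79.5 in astrocytes and 64, 79.3, 50.1 and 98.2 in the next cluster, which was a granule cell cluster at all 4 ages. Ctnnbip1, which keeps beta-catenin from its partners of the TCF family, read 1092, 488, 394 and 310.2 CPM against 271, 292, 167 and 256. Cyp1b1, a cytochrome P450 that acts on retinol and steroids, read 124, 117, 102 and 95.4 CPM against 46.4, 28, 30.6 and 24.4. Notch2 is taken up with its pathway.

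Over the same 3374 genes, the RGL profile (log2 of CPM plus 10) was nearest to an astrocyte cluster at every age. The correlation across genes was 0.664 with Astro-adult at P19, 0.780 with Astro-juv at P23, 0.804 with Astro-adult at P120 and 0.734 with Astro-adult at P132. With nIPC it was 0.571 at P19 and 0.673 at P120, the ages at which nIPC had 20 or more cells. Clusters of an age share a library, and RGL sums differ in depth between ages, so these values describe the order within an age. Within an age the other sums differ in depth too, at 86237 UMIs in nIPC and 642365 in astrocytes at P19. At P120 they held 207238 and 608419. The part of depth in the order was not tested.

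Against astrocytes of the same age, 103 of 6261 genes compared (1.65%) were 2-fold or more higher in RGL at all 4 ages and 277 (4.42%) lower, with a median log2 ratio over all genes of -0.16. This comparison too is a description, and its log2 ratios differ from those of the printed CPM: they carry a prior count of 2 and are scaled by TMM, which centres most genes near 0 and shifted the ratios by -0.33, -0.22, -0.08 and -0.20. On CPM without TMM, a setting chosen after seeing the data, 153 genes were higher and 204 lower; Hopx, Notch2 and Zbtb20 of the lists then passed as higher, and Gfap, Mt1, Ttyh1, Acsbg1, Slc6a11, Dhcr7 and Idi1 no longer as lower. With 1 age fewer to pass, the higher count was 166 without P19, 164 without P23 and 176 without P132. Of the 28 radial glia and stem cell transcription factors that could be compared (of 29), 6 were higher and none lower, among the former Emx1, Mycn, Prox1, Sox1 and Tfap2c. The median log2 ratio of the 28 was 0.37. Tfap2c, Mycn and Emx1 had 4, 12 and 21 UMIs in astrocytes, so they had enough counts largely through RGL. Tfap2c is also among the 5 markers given for the cluster. The count of 6 is therefore a description only.

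Mycn, a growth-promoting member of the Myc family, read 149, 106, 89.4 and 95.4 CPM in RGL against 6.23, 2.65, 3.29 and 1.37 in astrocytes, and Emx1, a factor of the dorsal forebrain, 49.6, 106, 122 and 95.4 against 0, 6.62, 4.93 and 5.48. Prox1, which sets granule cell identity, read 174, 148, 106 and 191 against 48.3, 35.7, 36.2 and 31.5.

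The core glial stem cell factors were not among the 6. Sox2 read 496, 371, 524 and 620.4 CPM in RGL and 429.7, 410.3, 496 and 603 in astrocytes, and Sox9 695, 615, 1011 and 835 against 629, 643, 930.3 and 967. Both factors act in glia and neural progenitors, and neither cluster led at all 4 ages in Sox2 or Sox9. Zbtb20, a factor of hippocampal identity, read 2630.0, 2004, 3420.4 and 2887 against 1278, 962, 1463 and 1187 CPM; its log2 ratios of 0.71, 0.83, 1.14 and 1.08 put it above astrocytes at every age, past 2-fold in the adults alone with TMM and at all 4 ages without it.

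The genes of mature astrocyte function were lower. Of 20, 16 were 2-fold or more lower in RGL at all 4 ages and 0 higher, with a median log2 ratio of -2.23. Some had enough counts to be compared largely through astrocytes, such as Igfbp2, with 2 UMIs in RGL and 1151 in astrocytes. The list holds astrocyte genes and the clusters were drawn on such genes, so this count is a description only. Aqp4, the water channel of astrocyte endfeet, read 49.6, 95.4, 81.2 and 167 CPM in RGL and 2173, 2375, 950.0 and 2076 in astrocytes. Gja1, which forms gap junctions, read 372, 392, 646 and 1312 against 3746, 3682, 4539.6 and 4424. Grin2c, an NMDA receptor subunit found in astrocytes, had 1 UMI in RGL against 327, 379, 381 and 347 CPM in astrocytes.

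The exceptions in that list were Agt, Itih3, Kcnj10 and Mfge8. Itih3, which binds hyaluronan in the matrix, was higher in RGL at every age, 99.2, 456, 431 and 358 against 51.4, 164, 259.7 and 111 CPM. Kcnj10, the potassium channel Kir4.1, read 323, 392, 362 and 334 against 332, 459, 271 and 367. Agt, which makes angiotensinogen, read 24.8, 84.8, 16.2 and 119 against 187, 227, 115 and 104, lower at 3 ages and not at P132, where it had 5 UMIs.

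Of 24 genes shared by radial glia and astrocytes (of 25), 11 were lower in RGL than in astrocytes and 0 higher, among the former Apoe, Clu, Cpe, Gfap, Glul, Mt1, Slc1a2, Slc4a4, Sparcl1 and Ttyh1. The summed level of the list was 2.64, 1.90, 2.15 and 1.84 times higher in astrocytes. Gfap, the intermediate filament whose promoter drives the reporter, read 323, 509, 374 and 334 CPM in RGL and 1144, 935, 819 and 1510.2 in astrocytes. The glutamate transporter Slc1a2 read 4665, 2979, 4139 and 7803 against 17962, 12678, 9484 and 17581.

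Among Notch ligands, Jag1 and Dner lay on opposite sides. Jag1, a membrane ligand, read 149, 42.4, 126 and 47.7 CPM in RGL, 15.6, 12.6, 39.4 and 26 in astrocytes and 11.6, 0, 38.6 and 42.6 in nIPC; RGL was above astrocytes at all 4 ages, and at P132 by less than 2-fold on 2 UMIs. Dner, a ligand of the neural and glial surface, was the reverse, with 1 UMI in all RGL cells and 221, 208, 105 and 167 CPM in astrocytes. The Delta ligands Dll1, Dll3 and Dll4 had no UMI in RGL at P19 and P23 and were at most 24.4 CPM in the adults.

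Of 6 Notch receptors and modifiers compared (of 10), none passed 2-fold at every age with TMM and Notch2 alone did without it. Notch2 was the highest among clusters of 20 or more cells at each age, at P19 by only 1.22-fold over the next cluster. Notch2 (chr3:98013527-98150361, forward strand), a receptor, read 471, 392, 1231 and 262 CPM in RGL, 219.5, 117, 375 and 127 in astrocytes and 34.8, 33.2, 72.4 and 21.3 in nIPC. The P120 value stood well above the 3 other ages in RGL and was also the highest of the 4 in astrocytes. Notch1 read 372, 148, 195 and 239 CPM in RGL and 159, 105, 100.3 and 114 in astrocytes, with log2 ratios of 0.88, 0.27, 0.85 and 0.84. Rbpj, the nuclear effector, read 99.2, 31.8, 56.9 and 71.6 against 29.6, 18.5, 42.7 and 27.4.

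Of 4 Notch targets compared (of 6), Hey1 alone passed 2-fold at every age. Hes5, whose promoter is printed above, read 1117, 530.1, 337 and 549 CPM in RGL and 459, 424, 278 and 225 in astrocytes. Its log2 ratios of RGL to astrocytes were 0.94, 0.10, 0.19 and 1.07, so the 2 were close at P23 and P120. In nIPC Hes5 read 23.2, 16.6, 29 and 63.9, far under both. Hey1 was lower in RGL than in astrocytes at every age, 49.6, 31.8, 12.2 and 23.9 against 118, 99.9, 57.5 and 73.3 CPM. Hes1 read 24.8, 74.2, 183 and 119 against 165, 79.4, 123 and 144, with no common direction.

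The BMP targets of the Id family came next. Of its 4 genes, Id2 and Id3 were 2-fold or more lower at every age and none higher. Id2 read 198, 265, 60.9 and 71.6 CPM in RGL and 911, 1034, 643 and 957 in astrocytes, and Id3 273, 254, 4.06 and 71.6 against 1068, 1037, 491 and 373. Id4, the family member linked to quiescence of these cells, was at 669.9, 318, 784 and 262 CPM in RGL, 604, 411, 779 and 644 in astrocytes and 58, 0, 72.4 and 42.6 in nIPC. Id4 was thus not set apart from astrocytes and was far above the progenitors.

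Of the 6 BMP receptors and Smads compared (of 11), the receptor Bmpr1b was lower in RGL, 0, 21.2, 12.2 and 0 CPM against 148, 105, 80.5 and 117, and none was higher. Bmpr1a, its relative, read 74.4, 84.8, 122 and 47.7 against 146, 150.2, 110.1 and 145. None of the 10 BMP ligands and inhibitors had enough counts to be compared, and Bmp4 had 1 UMI in the RGL cells of the 4 ages.

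**Figure D2:**
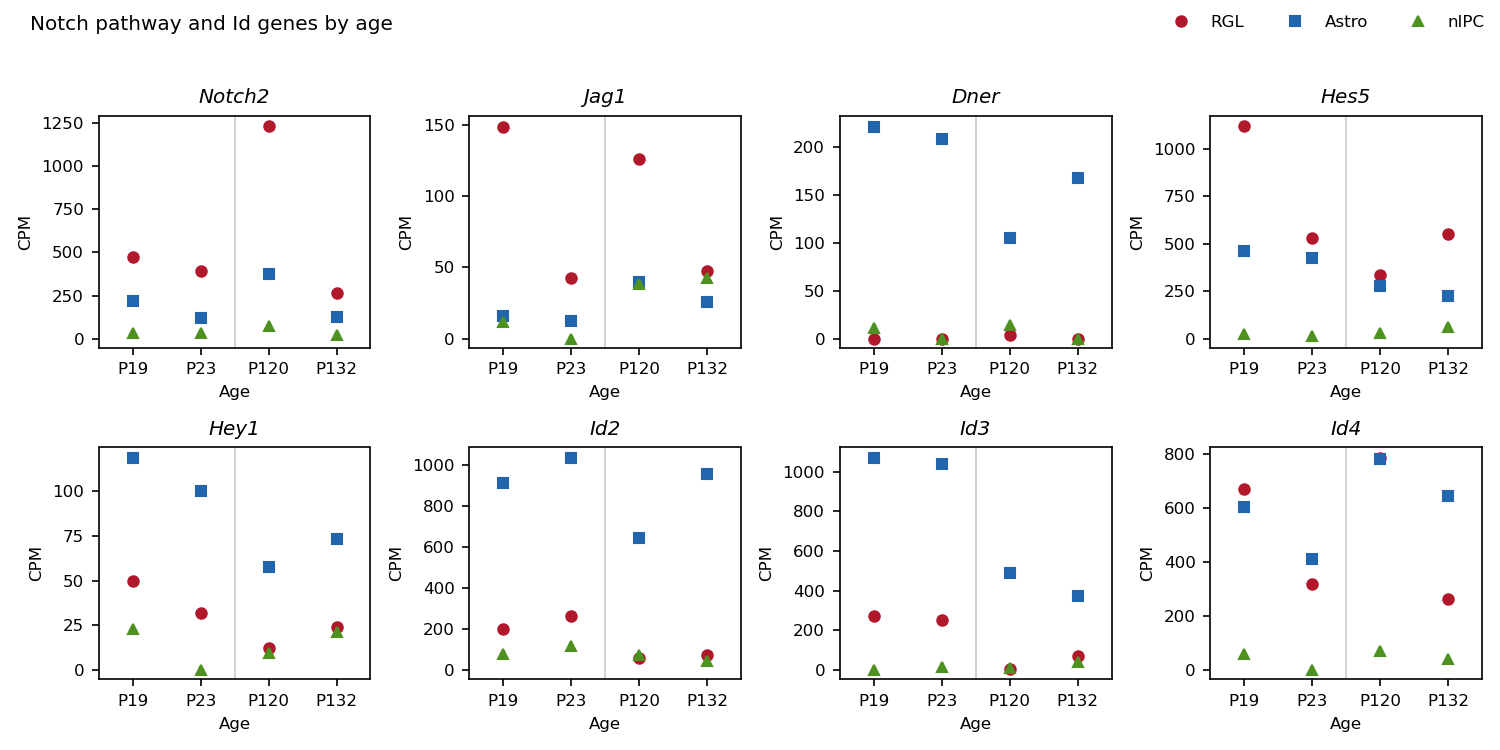
Levels (CPM of summed cells, linear axis from 0) of Notch2, Jag1, Dner, Hes5, Hey1, Id2, Id3 and Id4 at P19, P23, P120 and P132 in RGL, astrocytes and nIPC; each point is 1 cluster at 1 age. Id2, Id3, Dner and Hey1 are higher in astrocytes than in RGL at every age, and Hes5 and Id4 are high in RGL and astrocytes and low in nIPC.

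Of 6 Hedgehog genes compared (of 12) none passed 2-fold at every age in either direction. Gas1, a coreceptor of Shh, was the highest among clusters of 20 or more cells at the 4 ages. It read 571, 329, 244 and 239 CPM in RGL and 168, 167, 184 and 176 in astrocytes. Gli1, the target that reads out the pathway, was low but above astrocytes where seen, 0, 31.8, 52.8 and 23.9 against 3.11, 1.32, 11.5 and 3.43 CPM, and was too sparse to be compared by the rule. Ptch1, the receptor and also a target, read 49.6, 223, 236 and 47.7 against 103, 103, 120 and 116, with no common direction.

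Of 11 Wnt genes compared (of 23), 3 were higher in RGL at every age and 1 lower. The higher ones were Frzb, given above, Sfrp1, another secreted Wnt-binding protein (24.8, 74.2, 85.3 and 95.4 against 6.23, 14.6, 8.22 and 10.3 CPM), and the nuclear effector Lef1 (74.4, 63.6, 32.5 and 47.7 against 15.6, 14.6, 6.57 and 5.48). The lower one was the ligand Wnt7a, 0, 42.4, 32.5 and 0 against 79.4, 105, 77.2 and 75.4. Axin2, a common target, had only 3 UMIs in RGL.

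Of 13 growth factor and cytokine receptors compared (of 14), Cntfr, Ednrb and Fgfr3 were 2-fold or more lower at every age and none higher, with a median log2 ratio of -1.16. Fgfr3, the FGF receptor of astrocytes, read 99.2, 159, 207 and 334 CPM in RGL and 673, 581, 758 and 839 in astrocytes, and Ednrb, an endothelin receptor, 24.8, 0, 89.4 and 95.4 against 520.0, 561, 516 and 419. Egfr, which marks activated stem cells in other niches, read 24.8, 42.4, 134 and 167 against 99.6, 82.1, 75.6 and 91.8, under astrocytes at both juvenile ages and above them at both adult ages. In the test of that difference against astrocytes, described below, Egfr had a log2 value of 2.22 (SE 0.72) and an edgeR adjusted p = 0.95, so it was not called.

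Of the lysophosphatidic acid genes, 5 of 10 could be compared. Lpar1 was higher, as given above, and its relative Lpar4 lower, 0, 53, 24.4 and 23.9 against 77.8, 122, 136 and 123 CPM. Plpp3, a surface phosphatase that breaks the ligand down, was high in both, 1439, 1877, 2076 and 2171 CPM in RGL and 2606, 3156, 3192 and 3281 in astrocytes.

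Of 9 fatty acid synthesis genes, Thrsp was higher in RGL than in astrocytes and Elovl5, an elongase, and Srebf1, the pathway's transcription factor, were lower. The other 6 passed in neither direction. The synthase itself, Fasn, read 24.8, 84.8, 77.2 and 71.6 CPM in RGL and 118, 175, 163 and 121 in astrocytes. Of 13 cholesterol synthesis genes compared (of 14), 5 were lower, among them Dhcr7, Idi1 and Msmo1, and none higher. Msmo1 read 99.2, 117, 109.7 and 143 against 508, 778, 450.3 and 447 CPM. The list's summed level was 2.35, 2.29, 2.57 and 2.19 times higher in astrocytes. Of 11 fatty acid oxidation genes compared (of 13) none passed in either direction.

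Genes of entry into the cell cycle differed from astrocytes in part. Of 5 G1 genes compared (of 10), Ccnd2 and Cdk6 were higher at every age. Ccnd2, the D-type cyclin of neural progenitors, read 645, 191, 861 and 358 CPM in RGL, 68.5, 40.4, 26.3 and 29.5 in astrocytes and 1994, 1261, 3358 and 1981 in nIPC. Its kinase partner Cdk6 read 273, 42.4, 232 and 47.7 CPM in RGL, 0, 1.99, 1.64 and 0 in astrocytes and 557, 249, 719 and 426 in nIPC. For both genes RGL stood between the 2 other cell types, but Cdk6 rested on 11, 4, 57 and 2 UMIs in RGL. Those of P132 came from 1 of 26 cells, at a level under the limit of 71.6 CPM given above. With 4 UMIs in astrocytes, Cdk6 had enough counts largely through RGL.

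The 15 S and G2/M genes summed to 49.6, 42.4, 130.0 and 167 CPM in RGL, 32.7, 17, 51 and 38.4 in astrocytes, 77.2, 36.2, 37.3 and 55.8 in granule cells and 7503, 6603, 6968 and 5411 in nIPC. Granule cells do not divide, and against them the RGL level was lower at P19, near at P23 and higher at P120 and P132, all far under nIPC. At P19, P23 and P132 only 2, 4 and 5 RGL cells held such a UMI, so the order there rests on very few counts. At P120, 24 of 115 RGL cells had at least 1 such UMI and the most in a cell was 5. Mki67, the usual proliferation marker, read 0, 0, 8.12 and 0 CPM in RGL.

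**Figure D3:**
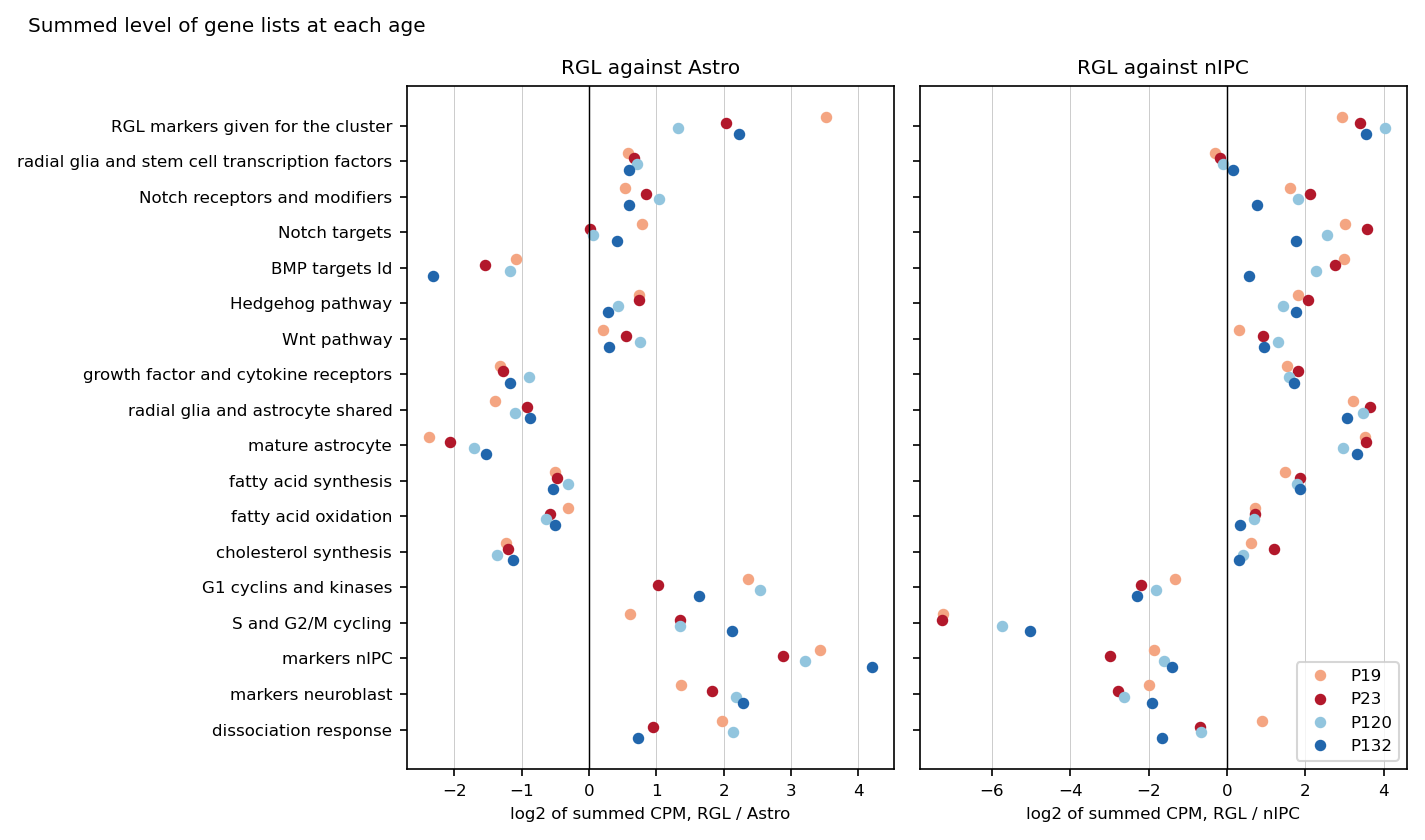
Log2 ratio of the summed CPM of 18 gene lists, RGL over astrocytes and RGL over nIPC, with 1 point for each of P19, P23, P120 and P132; 0 marks equal levels. The nIPC marker and G1 lists lie above 0 against astrocytes and below 0 against nIPC, and the mature astrocyte and shared glial lists the other way round.

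A dissociation response list of immediate early and heat shock genes also differed. Of 9 compared (of 15), Btg2, Fos, Ier2 and Jun were higher in RGL than in astrocytes at every age. The list summed to 5136, 2237, 3010.1 and 1289 CPM in RGL, 1301, 1161, 685 and 781 in astrocytes and 1976, 3434, 2038 and 1639 in granule cells. Btg2 is also an nIPC marker, and Fos is induced by activity as well as by handling. The part of dissociation in these levels was not tested.

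Markers of other cell types were summed as well. Of 4 nIPC genes compared (of 8), 3 were higher in RGL than in astrocytes, among them Btg2 and Igfbpl1, and the list summed to 719.5, 349.9, 877 and 644 CPM in RGL, 66.9, 47.7, 95.3 and 34.9 in astrocytes and 2597, 2771, 2693 and 1704 in nIPC. The defining gene Eomes read 24.8, 0, 32.5 and 0, and Neurod4 was at 0. Of the neuroblast list, Sox11 and Sox4 were higher in RGL than in astrocytes, of 3 compared (of 9). It summed to 844, 573, 752 and 549 CPM in RGL and 773, 680.5, 816 and 586 in granule cells. The RGL sum was 2.58, 3.53, 4.53 and 4.85 times that in astrocytes. Granule cells are neurons, so their level of this list is no measure of free RNA.

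Oligodendrocyte markers (9 of 9 detected) summed to 397, 710.4, 414 and 119 CPM in RGL against 259, 438, 336 and 280.3 in granule cells, and OPC markers (7 of 8) to 24.8, 63.6, 81.2 and 71.6 against 21.8, 13.3, 58.7 and 15. Microglial markers (6 of 8, with Csf1r, Cx3cr1 and Ctss at 0 in the 4 ages) summed to 74.4, 95.4, 28.4 and 47.7 against 52.3, 51.6, 21.3 and 70. Endothelial and mural markers (5 of 8, with Cldn5, Flt1 and Acta2 at 0) summed to 124, 127, 12.2 and 0 against 33.9, 35.5, 10.7 and 20.1, and ependymal ones (4 of 7, with Foxj1, Ccdc153 and Pifo at 0) to 49.6, 159, 69.1 and 143 against 6.23, 10.1, 5.34 and 4.44, with 93.4, 146, 95.3 and 45.9 in astrocytes. No VLMC marker of 7 was detected. Gal of the neuroblast list, Dsp of the granule list and Neu4 of the OPC list were at 0 in the 4 ages; the counts of detected markers are over all 199 cells. Their part in the results was not tested. The granule cell list summed to 620.3, 679, 232 and 382 CPM in RGL and 5856, 5984, 5218 and 5521 in granule cells.

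By the size of the ratio alone, the 12 genes furthest above astrocytes included Tfap2c, Cdk6, Mycn, Fos, Lpar1, Emx1, Rhcg, Riiad1, Ccnd2, Efnb1 and Hmgn2. Efnb1, a ligand of Eph receptors, read 99.2, 74.2, 106 and 47.7 CPM in RGL and 3.11, 8.6, 4.93 and 7.54 in astrocytes. Hmgn2, a nucleosome-binding protein abundant in progenitors, read 2233, 180.2, 1580.2 and 835 against 174, 72.1, 209 and 86.3. Its P23 value in RGL was the lowest of the 4 by far.

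Those furthest below were Grin2c, Dner, Pcdh7, Gpr162, Igfbp2, Kank1, Pfkp, Kcnk1, Mfsd2a, Serpinf1, Gabrg1 and Mir124-2hg, each with at most 8 UMIs in RGL. Igfbp2, a secreted binder of insulin-like growth factors, had 2 UMIs in RGL and 115, 439, 168 and 214 CPM in astrocytes. Kcnk1, a potassium channel, had 8 UMIs in RGL, 4 of them at P19, and 455, 465, 276 and 361 CPM in astrocytes. Mfsd2a and Serpinf1 had none in RGL.

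Against nIPC, 147 of 1165 genes compared (12.6%) were 2-fold or more higher in RGL at all 4 ages and 93 (7.98%) lower, with a median log2 ratio over all genes of -0.08. Only 12 nIPC at P23 and 17 at P132 stood behind this, and without P132 the lower count was 163. TMM shifted these ratios by 0.28, 0.41, 0.29 and 0.40, and without it 118 genes were higher and 131 lower, with Emx2 no longer among the higher. Of 21 shared glial genes (of 25), 20 were higher in RGL. Aldoc, a glycolytic enzyme of glia, read 2630.0, 4262, 951 and 1718 CPM in RGL and 11.6, 0, 43.4 and 42.6 in nIPC, and Mt1, a metallothionein, 7468, 6764, 13929 and 15654 against 336, 747, 589 and 724.

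Notch2, Hes5, Id4, Gas1, Ntrk2 and Plpp3 were each higher in RGL than in nIPC as well. So were the transcription factors Emx2, Hopx and Sox9 of 17 compared (of 29), beside 12.6% of all genes. Ntrk2, the receptor of BDNF, read 744, 721, 898 and 883 CPM in RGL and 69.6, 49.8, 82 and 63.9 in nIPC. Ramp1, a partner of the calcitonin receptor family, read 347, 413, 297 and 191 against 0, 0, 0 and 21.3. Of 6 mature astrocyte genes that had enough counts (of 20), all 6 were higher in RGL than in nIPC: Acsbg1, Gja1, Kcnj10, Mfge8, Ntsr2 and Slc6a11. These and the shared glial genes had enough counts largely through RGL, so their counts support nothing. The same holds for genes such as Notch2, Hes5 and Hopx, which had 21, 12 and 9 UMIs in nIPC.

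The genes lower in RGL than in nIPC were led by those of mitosis: Ube2c, Cenpa, Top2a, Birc5, Ccnb1, Spc25, Prc1, Hmgb2, Pbk, Cenpf, Cks2 and 2810417H13Rik. Top2a, which untangles replicated DNA, read 24.8, 0, 8.12 and 23.9 CPM in RGL and 997, 913, 1071 and 767 in nIPC. Of the S and G2/M list the 10 genes with enough counts (of 15) were all lower, a set that passed through its level in nIPC. Cdkn2c, an inhibitor of Cdk4 and Cdk6, was lower too, 24.8, 42.4, 40.6 and 23.9 against 742, 465, 391 and 383 CPM, as were Cdk4, Ccnd2, Insm1, Igfbpl1 and Sox11.

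The perinatal cluster RGL_young was set beside RGL across ages, where age and cluster cannot be told apart. Of 4612 genes compared, 112 (2.43%) were 2-fold or more higher at each of the 4 RGL ages than at each of E16.5, P0 and P5 in RGL_young, and 48 (1.04%) lower, with a median log2 ratio over all genes of -0.12. Without TMM the counts were 92 and 65, and Kcnj10 no longer passed. The higher count was 184, 183 and 198 without P19, P23 and P5, and the lower one 137, 218, 129, 106 and 98 without P19, P23, P120, P132 and P5. Of 14 mature astrocyte genes compared (of 20), 7 were higher in RGL and none lower: Fam107a, Gja1, Gjb6, Itih3, Kcnj10, Ntsr2 and Slc6a11. Gjb6, a gap junction protein, read 49.6, 53, 56.9 and 71.6 CPM in RGL and had no UMI in RGL_young at the 3 ages used.

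Gpr37l1, a receptor of glia, read 273, 413, 427 and 406 CPM in RGL and 0, 7.59 and 22.9 in RGL_young at E16.5, P0 and P5. Notch2 read 48.5, 101 and 116 CPM in RGL_young and Jag1 4.28, 15.2 and 11.9, below every RGL age. Sox1, Ntrk2, Mt1, Mt3 and Slc1a2 were also higher in RGL. Mbp, of myelin, was in the higher set at 99.2, 339, 109.7 and 95.4 CPM, while granule cells of the same ages held 117, 237, 117 and 184 CPM, a cell type that makes no myelin.

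Few listed genes were lower in RGL than in RGL_young. Of 24 shared glial genes 2 were lower and 3 higher, of 28 transcription factors none was lower and 1 higher, of 5 nIPC genes 1 was lower, and of 6 neuroblast genes none passed. Vim, the intermediate filament of radial glia, read 74.4, 95.4, 167 and 95.4 CPM in RGL and 1413, 828 and 403 in RGL_young. Fabp7, the fatty acid binding protein of radial glia, read 1464, 4241, 1081 and 1432 against 9068, 12566 and 10044. Neurog2, a proneural factor, had 6 UMIs in RGL, all at P120, against 271, 97.2 and 90.5 CPM. Socs2, a brake on cytokine signalling, read 24.8, 63.6, 0 and 0 against 382, 319 and 202. Id3 and Cdk4 were lower as well.

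Of the cluster's 5 markers 4 could be compared with RGL_young, and none passed. Hopx read 114, 366 and 276 CPM in RGL_young at E16.5, P0 and P5, and Thrsp 144, 419.9 and 699. Both were lowest at E16.5, and Hopx at P19 lay within the range of the perinatal values.

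Between the stages, RGL sums at P120 and P132 were tested against those at P19 and P23 over 1113 genes with edgeR's quasi-likelihood test and Benjamini-Hochberg adjustment. At an adjusted p under 0.05, 6 genes (0.539%) were higher in the adult cells and 2 (0.18%) lower, and 144 genes had an unadjusted p under 0.05. With 2 ages a stage, every adult age lay above every juvenile age for 206 of the 1113 genes and every juvenile age above every adult age for 302. The p-values measure the spread between 4 pools that also differ in line, sort and sex.

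S100a10, a calcium-binding protein that carries membrane proteins to the surface (chr3:93555080-93564643, forward strand), read 0, 10.6, 309 and 262 CPM from 0, 1, 76 and 11 UMIs. Both adult ages were high and the juvenile cells held 1 UMI. The log2 difference, adult minus juvenile, was 5.21 (SE 0.81), adjusted p = 0.007 by edgeR; against 1 UMI this value depends on the prior count, and the ratio of summed UMIs was 40.7 with a counting interval of 7.11 to 1624. In astrocytes the same ages read 35.8, 6.62, 209 and 84.3 CPM.

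Sox21, a transcriptional repressor of the Sox family (chr14:118233232-118237030, reverse strand), read 24.8, 31.8, 284 and 239 CPM from 1, 3, 70 and 10 UMIs. The stages did not overlap, and the log2 difference was 3.25 (SE 0.62), edgeR adjusted p = 0.0387. Astrocytes read 107, 101, 210.4 and 232 CPM, higher in the adults too. The ratio of summed UMIs in RGL was 9.35 (3.51 to 35.1).

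Of the 2 genes lower in adult RGL, Id3 (chr4:136143497-136145755, forward strand) read 273, 254, 4.06 and 71.6 CPM from 11, 24, 1 and 3 UMIs, a log2 difference of -3.89 (SE 0.83), edgeR adjusted p = 0.0421. The juvenile to adult ratio of its UMIs was 18.7 (6.69 to 72.5), and the P120 sum, with the most cells, held 1 UMI. Its astrocyte levels, given above, were also lower at both adult ages. Prdx1, a peroxidase that clears hydrogen peroxide (chr4:116685544-116700822, forward strand), read 844, 1113, 268 and 286 CPM, a log2 difference of -1.74 (SE 0.36), edgeR adjusted p = 0.0421, with 738, 916, 503 and 536 CPM in astrocytes.

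The other 4 called genes have uncertain counts. Gm8730, Gm10076 and Gm9843 share sequence with ribosomal protein genes: of their 31-base words, 62.8% of those of Gm8730 are also in Rplp0, 82.2% of those of Gm10076 in Rpl41 and 100% of those of Gm9843 in Fau. Gm10561 lies antisense to Rftn2 (chr1:55226251-55235622, forward strand), and whether the authors' counting used the strand is not given in the sources used here. Gm8730 read 298, 127, 1539.6 and 1312 CPM in RGL, a log2 difference of 2.99 (SE 0.44), edgeR adjusted p = 0.007, and 76.3, 35.1, 286 and 308 in astrocytes. The log2 differences of Gm10076, Gm9843 and Gm10561 were 2.03 (SE 0.40), 2.44 (SE 0.49) and 2.11 (SE 0.45), with edgeR adjusted p of 0.0403, 0.0415 and 0.0421.

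**Figure D4:**
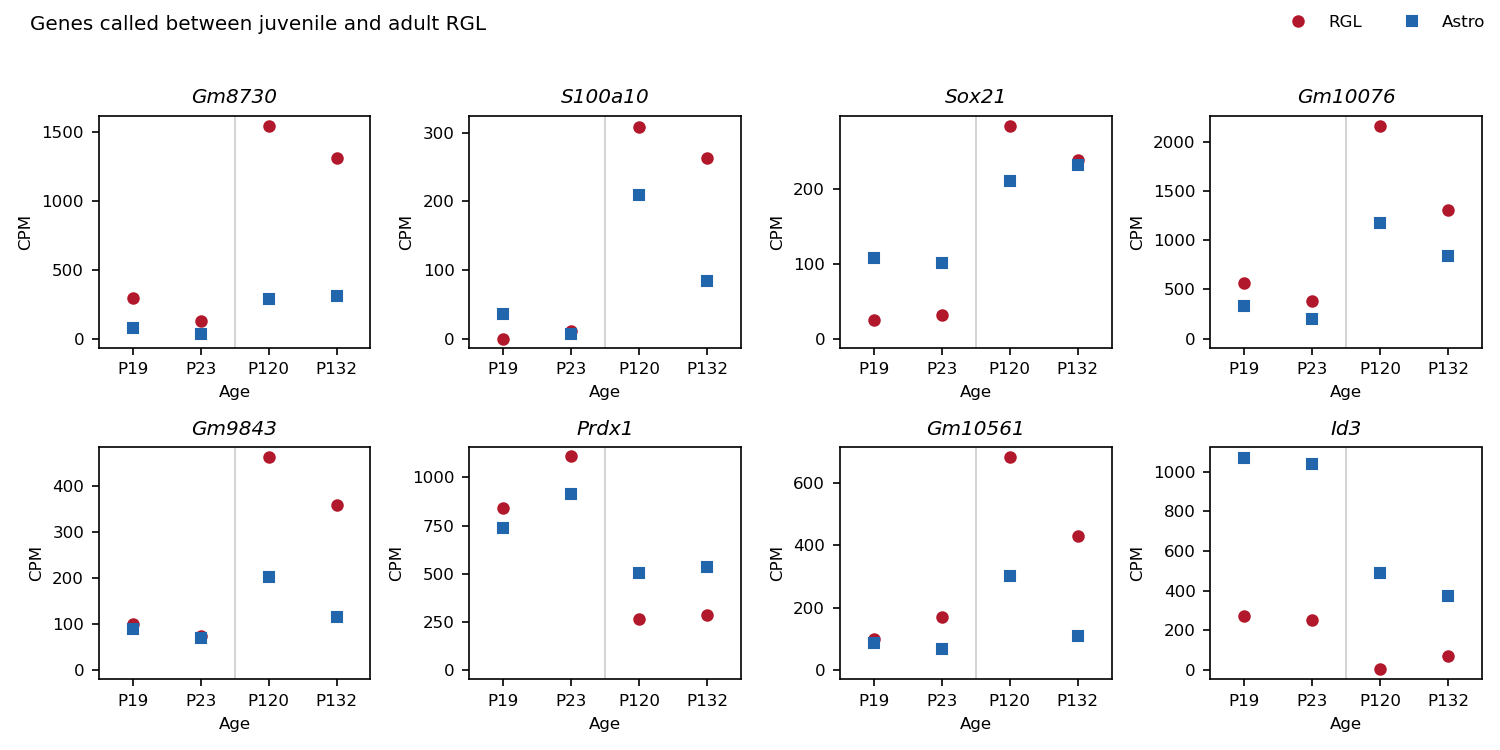
Levels (CPM of summed cells, linear axis from 0) of the 8 genes called between adult and juvenile RGL, in RGL and in astrocytes at P19, P23, P120 and P132; each point is 1 cluster at 1 age. In RGL the adult and juvenile points do not overlap in any panel, and in astrocytes the adult points lie on the same side of the juvenile ones.

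These calls depend on single ages. The total was 22 without P19, 2 without P23, 3 without P120 and 21 without P132. Each of these fits leaves 1 stage with a single age, which is assumed to vary like the other stage. Without P23 none of the 8 was kept, without P120 1 of the 8 was kept (Gm8730), without P19 6 and without P132 7. Directions were the same without P23, with log2 differences of 3.42 for Sox21, -3.81 for Id3 and 2.30 for Gm8730 and edgeR adjusted p over the 8 from 0.0822 to 0.731. Leaving out the 5 P120 cells described below, an alternative chosen after seeing the data, left Gm8730 and S100a10. DESeq2 called 1 gene, Gm8730, with 50 at an unadjusted p under 0.05.

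The cluster's markers and pathway genes were not among the calls. Hopx differed by 0.29 (SE 0.40) on the log2 scale (edgeR adjusted p = 0.758) and Thrsp by -0.14 (SE 0.34) (edgeR adjusted p = 0.885). Notch2 and Hes5 overlapped between the stages, with 1.04 (SE 0.51) and -0.83 (SE 0.44). Aldoc was lower at both adult ages, -1.30 (SE 0.42), with an edgeR adjusted p = 0.204, and Id2 differed by -1.80 (SE 0.52), with an edgeR adjusted p = 0.164. A p over the threshold does not show that these levels were equal.

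By list, of the transcription factors 19 passed the low-count filter (of 29) and Sox21 alone was called. Of the Id genes 3 passed (of 4) and Id3 was called. Of 22 shared glial genes that passed (of 25) and 10 mature astrocyte genes (of 20), none was called in either direction. No Notch ligand, BMP receptor, cell cycle inhibitor or S and G2/M gene had enough counts to be tested.

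Whether the stage difference in RGL differed from that in astrocytes of the same ages was tested with age as a block over 8164 genes. EdgeR called no gene (0%) at an adjusted p under 0.05, while 367 had an unadjusted p under 0.05, and DESeq2 called 0, with 83 unadjusted. The lowest edgeR adjusted p, 0.253, was that of Camk2a, a neuronal kinase. Camk2a read 198, 233, 20.3 and 47.7 CPM in RGL and 170, 333, 130 and 604 in astrocytes. Ccnd2 and Id3 followed at 0.354. Without P132 these 2 were called, with log2 differences of 2.58 and -4.55 and an edgeR adjusted p of 0.0385 each.

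So the 8 stage calls were not shown to be particular to RGL. For Sox21 the interaction was 2.23 (SE 0.72, edgeR adjusted p = 0.95), for S100a10 2.10 (SE 1.28, edgeR adjusted p = 1) and for Prdx1 -0.99 (SE 0.39, edgeR adjusted p = 0.95). For Gm8730 it was 0.52 (SE 0.46, edgeR adjusted p = 1). The log2 ratio of RGL to astrocytes for Id3 was -2.47, -2.25, -6.06 and -2.68, with P120 the furthest from the rest.

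The 2 P132 libraries, of 14 and 12 RGL cells from the same pool, gave 925 and 444 CPM of Hopx and 1064 and 1183 of Thrsp. These rest on 20 and 9 and on 23 and 24 UMIs.

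At P120, the age with the most cells, the 115 RGL cells were not uniform. Each was thinned to 1000 UMIs, and of 1617 genes with a mean of 0.1 or more UMIs the median variance to mean ratio was 1.047, close to the value of 1 of random sampling. There were 84 genes over 1.5 and 27 over 2. The 15 highest included Malat1 (33.0), Actb (9.13), Mt1 (6.50), Fos (5.61), Xist (5.44), Notch2 (3.81), Cst3 (3.70), Hmgn2 (3.64), Mt3 (3.61), Tmsb4x (3.27), Mt2 (3.18), mt-Co1 (3.16), RP23-4H17.3 (2.75) and mt-Co3 (2.73).

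In astrocytes of the same age the ratios were 51.3 for Malat1, a nuclear RNA, and 7.51 for Actb, so those 2 spread widely there also. Fos had 0.979, Hmgn2 0.987 and Notch2 1.91 in astrocytes, all below the RGL values. The P120 levels were lower in astrocytes too, at 209 against 1580.2 CPM for Hmgn2 and 375 against 1231 for Notch2. Fos was also far lower there than in RGL. At a low mean this ratio stays near 1 almost whatever the spread between cells. The contrast therefore cannot show whether RGL cells were more uneven than astrocytes in these genes. Fos was seen in 21 of the 115 thinned RGL cells, and the 10 highest held 81.0% of its UMIs. Notch2 was seen in 65.

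Xist, expressed from the inactive X of females, and the genes of the Y chromosome show which sex a cell came from, and the P120 pool held both. There, 47 cells had Xist and no UMI of the Y-linked genes, 36 the Y-linked genes alone, 5 both and 27 neither. At P19, from females, 23 of 23 cells had Xist alone, and at P23, from males, 0 had Xist and 16 had Y-linked UMIs. Of the 333 P120 astrocytes, 10 had both. In the P132 pool, also of both sexes, 9 of 26 RGL cells had Xist alone, 2 the Y-linked genes alone and 15 neither. Of the 810 P132 astrocytes, 191 had Xist alone, 271 the Y-linked genes alone, 19 both and 329 neither. Whether the 2 clusters drew on the animals of a pool in equal shares was not tested.

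Progenitor genes were unevenly held by the P120 cells. Of the 115, 46 had no UMI of the 8 nIPC markers, 55 had 1 to 4, 9 had 5 to 9 and 5 had 10 or more. Along these bins the median share of UMIs from the shared glial genes was 8.12%, 6.50%, 2.99% and 1.59%, and the median number of G1 UMIs 1, 1, 9 and 23. Median depth also differed, at 1793.5, 1990, 3163 and 4286 UMIs, so that the counts of UMIs are not depth-matched while the glial share is relative to depth. The bins are cuts on a range and name no cell type.

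The 5 cells at the upper end summed to 2884 CPM of the nIPC markers against 661 in the other 110, and to 5392 against 1107 CPM of the G1 genes. Eomes, the defining nIPC factor, was seen in 3 of the 5 and 0 of the 110, and Ccnd2 read 3051 against 625 CPM. Hopx was seen in 1 of the 5 and 89 of the 110, at 41.8 against 913 CPM. Notch2 read 83.6 against 1354 CPM and Aldoc 41.8 against 1048. The dissociation response genes moved with them, at 11118 against 2137 CPM. Each of the 5 cells held 31 to 65 such UMIs, against a median of 2 in the others. Btg2 is in both this list and the nIPC list that chose the cells, at 1045 against 189 CPM, so the lists are not independent. The part of the dissociation response genes in the result was not tested. The S and G2/M genes did not follow, at 167 against 126 CPM from 4 and 28 UMIs. These cells were chosen on the nIPC markers, so the values are a description, and how they came to hold this mixture was not tested.

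**Figure D5:**
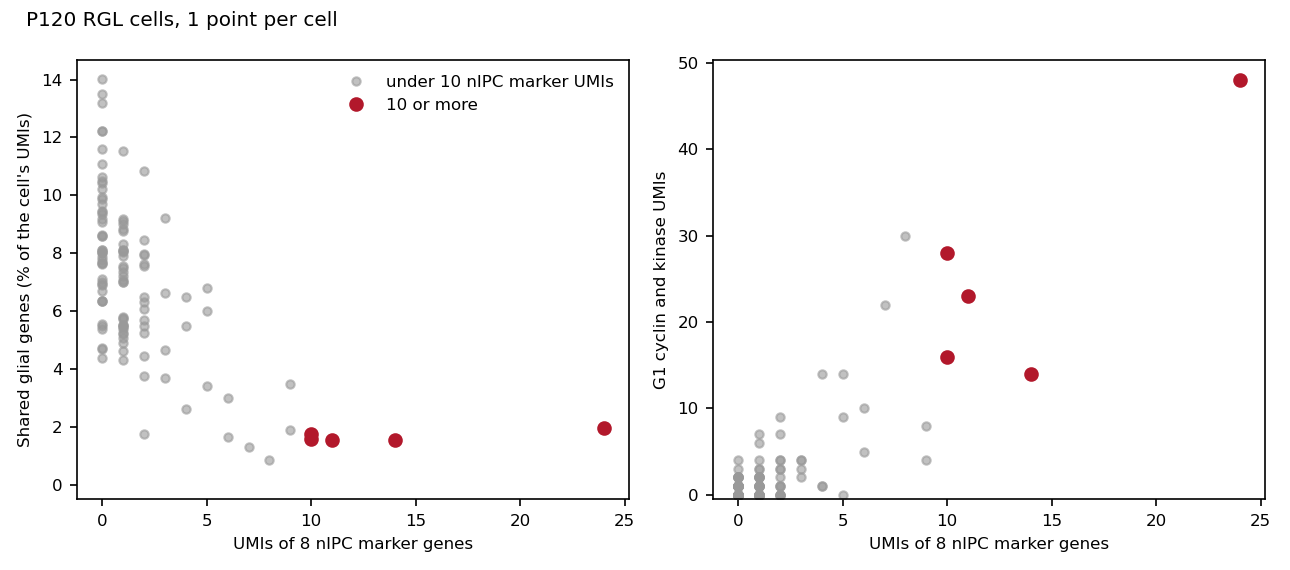
The 115 P120 RGL cells, each a point, by UMIs of the 8 nIPC markers (x axis) against the percentage of UMIs from shared glial genes and against UMIs of G1 genes (y axes); the 5 cells with 10 or more nIPC marker UMIs are drawn in another colour. Those 5 have 1.54% to 1.96% glial UMIs, and the other 110 range from 0.868% to 14.0% with a median of 7.17%.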

How the data were processed

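The deposited table held counts of UMIs, 1 whole number for each of 27933 genes and 24185 cells in 11 libraries; per the submitters' processing notes the authors used Cell Ranger and the build mm10, whose version, filters and annotation are not given in the sources used here. Ages, lines and cluster names came from the authors' deposited metadata, of which 31 empty lines were left out, and the libraries from the prefixes of the cell names. No doublet caller was run. The same barcode occurred in more than 1 library for 916 cells, of which 6 were RGL. Total counts per RGL cell ran from 1219 to 6185 UMIs.

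Counts were summed per cluster and age, and an age entered with 10 or more RGL cells. The stage test used edgeR 4.0.16 (limma 3.58.1, R 4.3.3; TMM, filterByExpr, glmQLFit, glmQLFTest, two-sided, Benjamini-Hochberg over all genes tested, threshold 0.05), with SE taken as the log2 difference over the square root of F, and was tested on simulated data. Nothing says that an age was more than 1 pool, so p-values measure the spread between 4 ages. The test against astrocytes had age as a block, because both clusters of an age come from the same pool of animals. The shares of single animals in the 2 clusters are not known. Cluster against cluster is described by log2 ratios of TMM-scaled CPM with a prior count of 2 and no test, since the clusters were drawn on these genes; a gene counts as higher or lower at 2-fold or more at every age. Intervals are exact (Clopper-Pearson for shares, conditional binomial for ratios of UMIs) and cover counting error only.

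Genes were named from fixed lists and by rule: in a test, called genes with a mean of 50 CPM or more whose stages do not overlap; in a description, the 12 largest and 12 smallest median ratios at a mean of 50 CPM or more in the higher cluster; of genes highest in RGL, the 15 with the largest ratio to the next cluster; and the 15 with the largest variance to mean ratio. The members and lists were chosen with earlier results of these data known, so their counts are no independent evidence. Positions are from GENCODE M21 on GRCm38. Vnn1 and Tfap2c had no promoter in the table used. Some genes that the rules name are not reported here. Printed levels are CPM without TMM. Alternatives covered scaling, filters, DESeq2 1.42.0, cell minimums, depth, cells of high UMI count and each age left out.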

Additional observations from a re-analysis of the deposited data

How the results depend on the processing

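The 8 genes called between adult and juvenile RGL became 14 with no filter on low counts, 1 with DESeq2, 2 with all 5 ages, 17 without the 2 cells over 2.5 times the median UMIs, 2 with cells thinned to 1000 UMIs, 4 with RGL_young cells of these ages added and 2 without the 5 P120 cells of 10 or more nIPC marker UMIs; the last was chosen after seeing the data. Leaving out 1 age at a time gave 2 (without P23) to 22 (without P19). RLE scaling gave 10. The number of genes tested differed as well, from 371 with thinned cells to 12950 with no filter or with DESeq2, against 1113 in the main fit. A minimum of 20 cells chose the same 4 ages as the main fit, so its 8 calls are no check. It is still counted among the 13 alternatives that follow. Every called gene kept its sign where it had a value, and of 13 alternatives Gm8730 was called in 12, S100a10 in 9, Sox21 in 7, Gm10076 and Gm9843 in 6 each, Id3 in 5 and Gm10561 and Prdx1 in 4 each. S100a10 and Sox21 had a value in 11 of the 13 alternatives, and Gm9843 and Id3 in 12. An alternative without a value counts here as not called. The causes of these changes were not tested.

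With no replicate block the test of RGL against astrocytes called 0 genes, as it did with the block, with 273 instead of 367 at an unadjusted p under 0.05. Leaving out 1 age gave 0 to 2, the 2 being without P132; every other alternative gave 0.

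Asking for 4-fold in place of 2-fold at every age left 16 higher and 65 lower genes against astrocytes, 75 and 44 against nIPC, and 19 and 2 against RGL_young. Leaving out 1 age gave 129 to 176 higher and 338 to 371 lower against astrocytes, 130 to 195 and 84 to 163 against nIPC, and 106 to 198 (110 without P0) and 45 to 218 against RGL_young; each setting asks for fewer ages to pass. CPM without TMM, chosen after seeing the data, gave 153 higher and 204 lower genes against astrocytes, 118 and 131 against nIPC, and 92 and 65 against RGL_young. Thinning moved 29 of 76 shares of cells with a UMI beyond their interval and left 47 within it. The sums at P19 and P132 hold the fewest UMIs and limit what can be seen of weak genes.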
